A study of Solanum lycopersicum with 3 samples.

Results

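The HSFA1a sites of tomato chromosome 9 are the binding peaks whose chromosome field names chromosome 9 in either of the 2 deposited HSFA1a peak lists. Chromosome 9 was chosen by its peak density, the highest of the 12 numbered chromosomes in both lists. It held 2311 of the 24176 peaks of replicate 1 and 1414 of the 14932 peaks of replicate 2. Because density chose the chromosome, its density and everything that follows directly from it are given as a description, with no test.

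The study profiled HSFA1a binding by AmpDAP-seq, an assay in which Halo-tagged protein from a wheat germ extract, held on magnetic beads, captures pieces of genomic DNA that had been stripped of chromatin and copied by PCR. The DNA was extracted from M82 leaves at 4 weeks, from plants kept at 24 °C under 16 h days, and no heat treatment is named for these samples. The samples were 2 HSFA1a-Halo-tag replicates, each with its own peak list, and 1 Halo-tag sample without the factor, whose reads were not used here. The assay measures what the protein can bind on DNA free of nucleosomes and of other tomato proteins. The called peaks are thus candidate sites of HSFA1a binding in vitro and not sites shown to be occupied in a leaf. The paper counts far fewer putative HSFA1a binding sites than either list holds, and how its set was chosen was not examined here.

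HSFA1a is a class A heat shock transcription factor, known as a master regulator of the tomato heat response. Heat shock factors bind as trimers to heat shock elements, which are short motifs repeated in alternating orientation, and neighbouring elements can be bound cooperatively. Tomato chromosomes carry most of their genes toward the ends, while their broad middle parts are rich in repeats. The sequence of the M82 assembly and its gene models were not used here, so motifs, repeats and nearest genes at the sites below were not analysed.

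The peak density of chromosome 9 exceeded that of every other chromosome by a modest margin. In replicate 1 it was 33.6 peaks per Mb, against 29.8 per Mb over the other 11 chromosomes together and a range of 26.3 on chromosome 6 to 31.8 on chromosome 10. In replicate 2 it was 20.6 peaks per Mb, against 18.0 over the other 11 together and a range of 15.8 on chromosome 6 to 19.1 on chromosome 10. Chromosome 10 was thus the next in order in both lists. Replicate 1 gave a ratio of chromosome 9 to the others of 1.13 and replicate 2 gave 1.14 (mean 1.14 ± 0.0108, SD, n = 2), so the libraries gave almost the same margin although replicate 1 held far more peaks. At the density of the others, the 68.7 Mb of chromosome 9 would have held 2049 and 1237 peaks, which leaves an excess of 262 peaks in replicate 1 and 177 in replicate 2. Chromosome 9 carried 9.56% and 9.68% of the peaks of the 12 numbered chromosomes on 8.57% of their extent. The 12 peaks of replicate 1 and the 326 of replicate 2 (2.18%) that lay on other sequences are not part of these comparisons.

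**Figure D1:**
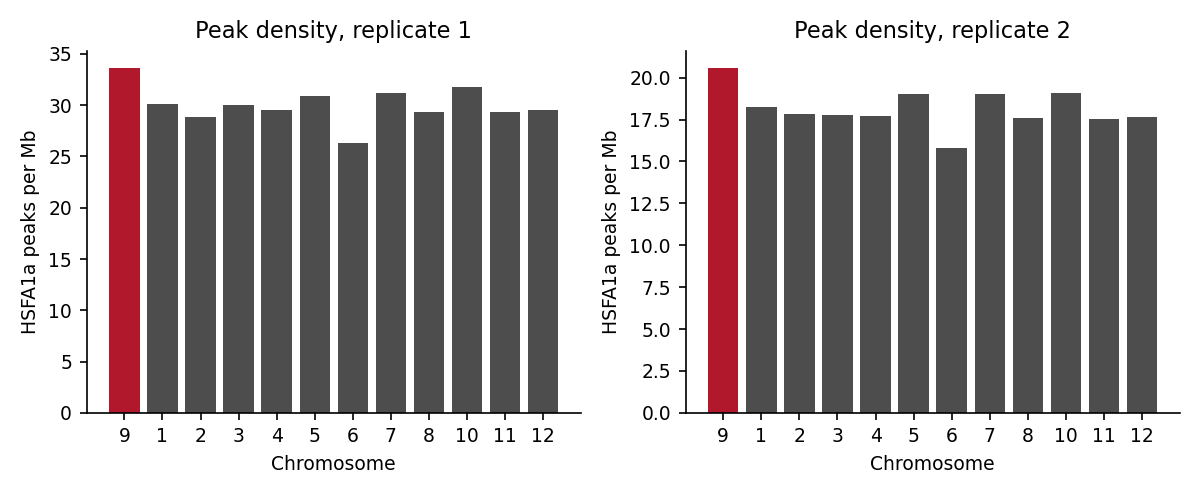
Bars give HSFA1a peaks per Mb on each numbered chromosome, with replicate 1 on the left, replicate 2 on the right, chromosome 9 in red and the other 11 in grey. Chromosome 9 stands at 33.6 and 20.6 peaks per Mb, above chromosome 10, the next highest, at 31.8 and 19.1.

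Chromosome 9 had the shortest stretches without a peak. Its longest was 266 kb in replicate 1, between summits at chr9:21038813-21304847, against 276 to 2054 kb on the others. In replicate 2 it was 378 kb, at chr9:16975597-17353873, against 412 to 2085 kb. Stretches over 250 kb without a peak, a limit chosen after the data were seen, numbered 2 and 11 on chromosome 9, against 3 to 12 and 18 to 29 on the others. They took 0.521 Mb and 3.17 Mb of chromosome 9, against 0.795 to 5.63 Mb and 5.69 to 11.1 Mb of each other chromosome. Chromosome 9 thus had the least of such sequence, and the densities above include it. With them left out everywhere, chromosome 9 still ranked first, with 33.9 peaks per Mb against 29.5 to 32.4 in replicate 1 and 21.6 against 19.5 to 21 in replicate 2. The excess was then 188 and 76.1 peaks. What these stretches hold was not analysed here.

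Along chromosome 9 the peaks were spread over its whole length, and no full bin of 1 Mb was empty. The 68 full bins held 14 to 54 peaks in replicate 1, with a median of 35 against 30 in the 728 full bins of the other chromosomes. In replicate 2 they held 7 to 39 peaks, with a median of 20 against 18. Most bins of chromosome 9 lay above the median bin elsewhere. In replicate 1 these were 46 of 68 (67.6%, against 47.5% of the other bins). In replicate 2 they were 45 (66.2%, against 44.8%). A smaller group was high, since 8 bins in replicate 1 (11.8%, against 4.95% of the other bins) and 7 in replicate 2 (10.3%, against 4.4%) lay above the 95th percentile of the other chromosomes. Bin counts moved together in the lists (Pearson r = 0.810, Spearman rho = 0.785 over 68 bins), as a description of bins that cover the same DNA in both libraries.

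The 3 bins with most peaks, summed over both lists, lay between 50 and 55 Mb, and bins 51 and 52 adjoined. Bin 52, at chr9:51000001-52000000, held 51 peaks in replicate 1 and 39 in replicate 2. Bin 55, at chr9:54000001-55000000, held 54 and 35, and bin 51, at chr9:50000001-51000000, held 46 and 35. Among the 808 bins of the 12 chromosomes these ranked 5, 2 and 20 in replicate 1 and 2, 5 and 5 in replicate 2. The sparsest bins lay away from them, near the start of the chromosome and at about 20 Mb. Bin 4, at chr9:3000001-4000000, held 14 and 7 peaks, bin 2, at chr9:1000001-2000000, held 17 and 10, and bin 21, at chr9:20000001-21000000, held 16 and 12.

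**Figure D2:**
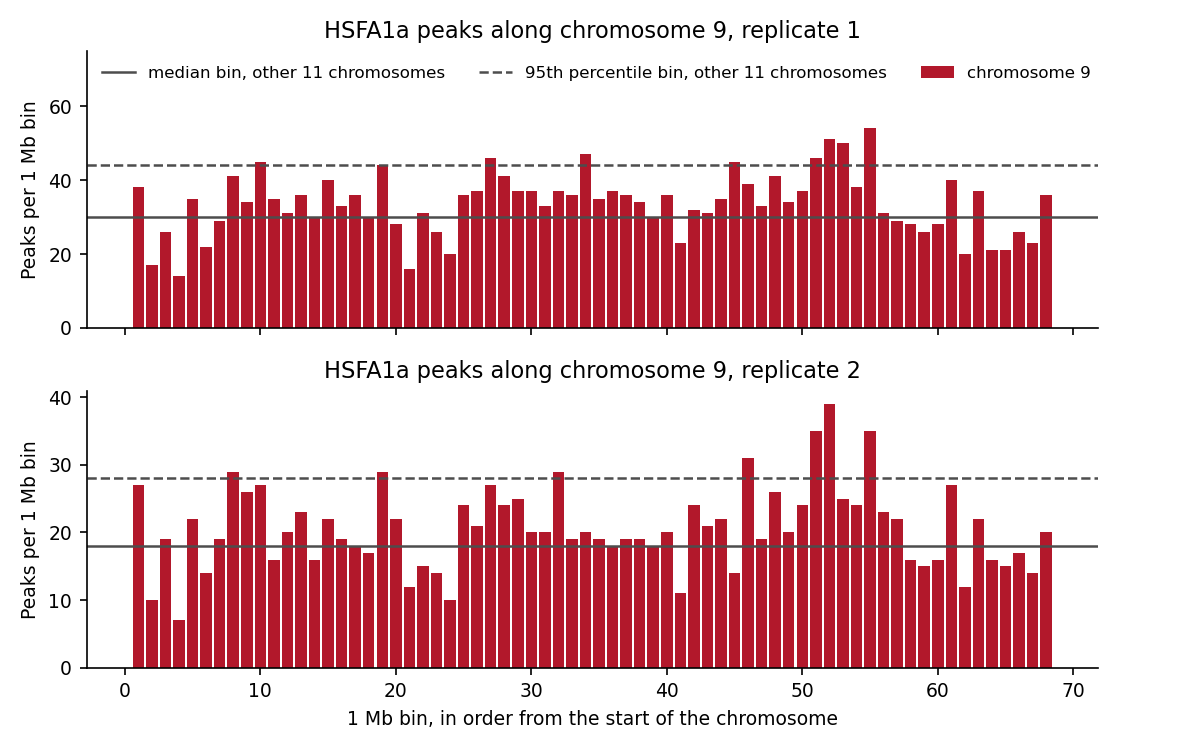
Bars give the number of HSFA1a peaks in each full bin of 1 Mb of chromosome 9, in order, with replicate 1 above and replicate 2 below. The solid line is the median bin of the other 11 chromosomes (30 and 18 peaks) and the dashed line their 95th percentile (44 and 28 peaks), and bins 51, 52 and 55 rise above it in both lists.

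Counted over the full length of all chromosomes, the excess was broad, with a concentration past the middle of the chromosome. Long peak-free stretches of the other chromosomes lower the density that it is set against. With stretches over 250 kb left out, the excess was 188 and 76.1 peaks, and its position was not worked out on that count. Each chromosome was cut into 20 equal parts, and chromosome 9 was set against the pooled density of the others in the same part, so that differences in density between ends and middle were taken into account. In 15 of the 20 parts chromosome 9 held more peaks than that in both lists. Part 16, from 51.5 to 55 Mb, stood apart, with 173 peaks against 109 in replicate 1 and 107 against 65.1 in replicate 2. This single part held 63.9 and 41.9 of the excess peaks, or 24.4% and 23.7% of the net excess. Together with part 15 before it, it held 35% and 41.4%. Part 3, from 6.87 to 10.3 Mb, was the other part in which chromosome 9 ranked first in both lists, with 131 peaks against 102 and 90 against 63.0.

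Some parts of chromosome 9 had no excess at all. Part 7, from 20.6 to 24.1 Mb, held 83 peaks against 103 in replicate 1 and 45 against 62.6 in replicate 2, and ranked 11 of 12 in both. The 4 outermost parts, 2 at each end, added up to 0.0407 peaks in replicate 1 and 12.5 in replicate 2. The ends of chromosome 9 were thus close to those of the other chromosomes. The first 5 Mb held 26 and 17 peaks per Mb and the last 5 Mb 27.2 and 16.8, against 34.8 and 21.2 in between.

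**Figure D3:**
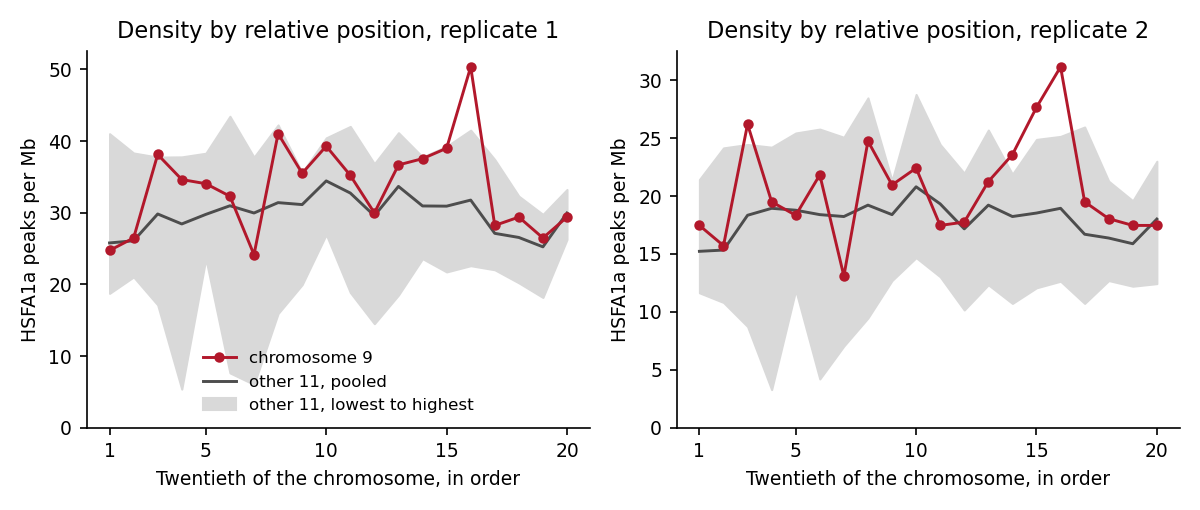
Points give HSFA1a peaks per Mb in 20 equal parts of chromosome 9, the grey line the pooled density of the other 11 chromosomes at the same relative position, and the band their lowest to highest value. Part 16 reaches 50.4 (replicate 1) and 31.1 (replicate 2) peaks per Mb, above the band, and part 7 falls to 24.2 and 13.1, below the grey line.

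The stretch of bins 51 to 55, chosen after the bin counts were seen, was examined further. It held 239 peaks in replicate 1 and 158 in replicate 2, or 47.8 and 31.6 per Mb, against 32.5 and 19.7 per Mb in the rest of the chromosome. On 7.28% of the length it carried 34.3% and 38.4% of the excess counted with peak-free stretches included. This share was not worked out without them. None of the 684 windows of 5 bins on the other chromosomes held as many, the highest being 214 and 136 peaks on chromosome 3. Without this stretch chromosome 9 still ranked first of 12, at a ratio of 1.09 in replicate 1 and 1.1 in replicate 2.

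Its peaks had a somewhat higher median enrichment. Fold enrichment here is the pileup of tags at the summit plus 1, over the local background plus 1, as the authors' peak caller gave it. Its median was 5.69 against 4.84 in the rest of chromosome 9 in replicate 1. In replicate 2 it was 7.06 against 6.60. The background itself was lower inside, with a median of 9.58 tags against 11 in replicate 1 and 2.37 against 2.63 in replicate 2, and its part in the higher enrichment was not tested. Of the peaks inside, 63.2% of replicate 1 and 95.6% of replicate 2 overlapped a peak of the other list, against 55.7% and 92.0% in the rest. These shares are a description, because the stretch was picked on the counts of both lists.

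The strength of the chromosome 9 sites as a whole was close to that of the other chromosomes. The median fold enrichment was 4.91 in replicate 1 (quartiles 3.50 and 7.57), the highest of the 12, against 4.64 to 4.86 on the others. In replicate 2 it was 6.62 (quartiles 5.23 and 9.20), against 6.43 to 6.76, which placed it 7 of 12. The lead in replicate 1 was small and was not kept under other settings. Without bins 51 to 55, left out on chromosome 9 alone, the median was 4.84 and ranked 3 of 12. With the stretch kept, it ranked 3 for overlapping peaks only and 4 for lists of equal length. Peaks of at least 10-fold enrichment made up 13.4% of the chromosome 9 peaks in replicate 1, against 12.1% of the others and 12.2% over all 12, and 20.01% in replicate 2, against 18.6% and 18.8%. Median peak width was 219 bp and 182 bp, against 213 to 217 bp and 180 to 185 bp.

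These values rest on different depths in the libraries. The median chromosome 9 summit had a pileup of 59.8 tags over a background of 11 in replicate 1 and of 24 tags over 2.63 in replicate 2. The lowest enrichment among the called peaks was 1.59 in replicate 1 and 2.04 in replicate 2, and the values of replicate 2 carry the larger counting error. The lists' medians cover different sets of peaks and are not a spread over the same sites.

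Most sites of the shallower list were found again in the deeper one. In replicate 1, 1306 of 2311 chromosome 9 peaks overlapped a replicate 2 peak by at least 1 bp, which is 56.5% (95% Wilson interval 54.5% to 58.5%), against 54.4% to 58.3% on the others and 55.9% over all 12 chromosomes. In replicate 2, 1307 of 1414 did so, which is 92.4% (90.9% to 93.7%), against 91.3% to 94.5% on the others and 92.6% over all 12. Sharing on chromosome 9 was thus near the background in both directions. These intervals cover counting error alone.

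Sharing followed strength. In replicate 1, peaks were sorted by q-value into 10 classes of equal size over all chromosomes. On chromosome 9, 14 of 218 peaks of the weakest class (6.42%) were shared and 237 of 237 of the strongest, against 6.68% and 100% on the others. In replicate 2, 78 of 123 peaks of the weakest class (63.4%) were shared and 149 of 149 of the strongest, against 61.4% and 100%. The 1005 unshared peaks of replicate 1 had a median enrichment of 3.60, against 6.86 for the shared ones. The 107 unshared peaks of replicate 2 had 4.57, against 6.84.

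At the 1306 paired sites the replicates gave similar deposited enrichments. Replicate 2 over replicate 1 had a median log2 ratio of 0.08 with an SD over pairs of 0.39, and 7 pairs (0.536%) differed by more than 2-fold, against 0.495% to 1.30% on the other chromosomes. Without the added 1 in both terms the median log2 ratio was 0.37, against 0.39 over the pairs of the other chromosomes, so the small shift between the lists depended on it. Log2 fold enrichment correlated with r = 0.820 and rho = 0.814 over the pairs, against r of 0.809 to 0.839 on the others. The points share the local background, which correlated at r = 0.973 between the lists, so they are not independent in this respect. Summits of a pair were mostly very near each other, at a median distance of 10 bp, with 96.6% of pairs at 50 bp or less.

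**Figure D4:**
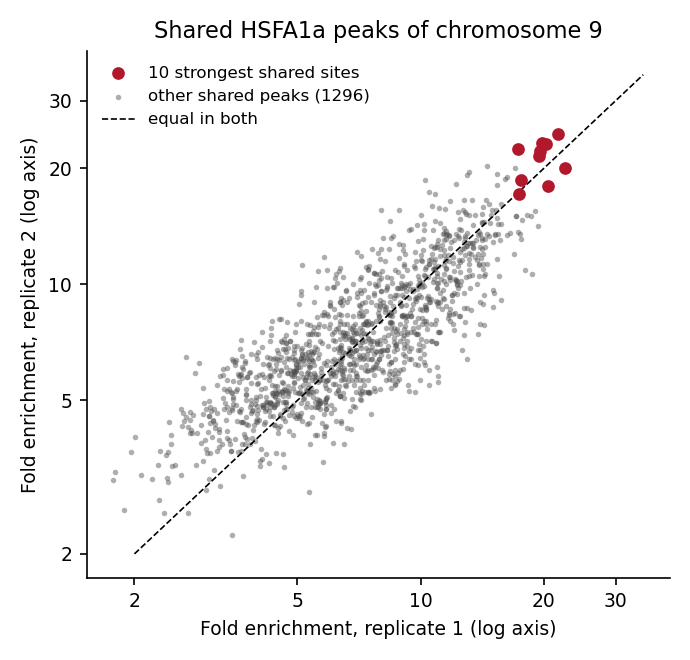
Each point is a chromosome 9 peak of replicate 1 paired with its replicate 2 peak, with fold enrichment in replicate 1 on the horizontal and in replicate 2 on the vertical log axis. The 10 strongest shared sites, in red, have at least 17.1-fold enrichment in both lists, and the dashed line marks equal values.

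The strongest shared sites, ordered by the smaller of their 2 enrichments, were spread along the chromosome and were not gathered in the dense stretch. The highest, chr9:66682245-66682801, had 21.6-fold enrichment in replicate 1 and 24.6-fold in replicate 2, and ranked 8 of the 13503 pairs of the 12 chromosomes. Its replicate 1 peak was 557 bp wide, against a median of 219 bp, and its summits were 3 bp apart. The second, chr9:4635082-4635376, had 20.2-fold and 23.2-fold enrichment, and the third, chr9:45972530-45972813, had 22.6-fold, the highest of any chromosome 9 peak of replicate 1, and 20.1-fold. The top site had a pileup of 219 tags over 9.17 in replicate 1 and of 76 tags over 2.13 in replicate 2. These leading sites lay near the end, near the start and at 46.0 Mb of the chromosome.

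The following sites were little weaker. The site chr9:3737535-3737833 had 19.8-fold enrichment in replicate 1 and 23.3-fold in replicate 2. The site chr9:26329133-26329465 had 19.6-fold and 22.2-fold, and chr9:59074791-59075067 had 19.5-fold and 21.5-fold. The site chr9:3737535-3737833 is 1 of the peaks of bin 4, which had the fewest peaks of any full bin, so a sparse bin still held a strong site. The site chr9:22906221-22906502, with 20.5-fold and 18.0-fold, likewise lay in part 7, where peaks were fewest relative to the others.

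The last of the 10 were chr9:41498891-41499169, with 17.6-fold enrichment in replicate 1 and 18.6-fold in replicate 2, chr9:40341528-40341841, with 17.3-fold and 22.4-fold, and chr9:45674824-45675110, with 17.4-fold and 17.1-fold. The log2 ratio of replicate 2 to replicate 1 ran over the 10 sites from -0.19 to 0.37, within the spread of all pairs. Of the 100 strongest pairs of the 12 chromosomes 11 lay on chromosome 9, against 5 to 13 on the others. Of the 1000 strongest 101 did, which is 7.73% of the chromosome 9 pairs, against 6.0% to 9.28%. That number was the highest of the 12 chromosomes, while the share lay inside the range of the others.

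Strong peaks called in a single list were few in replicate 1 and absent in replicate 2. Of the 1005 unshared peaks of replicate 1, 23 lay above the upper quartile of its chromosome 9 peaks (7.57-fold), and of the 107 of replicate 2, 0 lay above theirs (9.20-fold). This count was not made on the other chromosomes, where strong peaks were likewise mostly shared. In the q-value class next to the strongest, 98.7% of chromosome 9 peaks were shared in replicate 1, against 98.9% on the others. In replicate 2 it was 100%, against 99.9%. The strongest unshared peak of replicate 1, chr9:53935254-53935491, had 12.4-fold enrichment with a pileup of 117 tags over 8.51, and ranked 3 of 10661 unshared peaks of the 12 chromosomes. The nearest replicate 2 summit was 51627 bp away. The strongest unshared peak of replicate 2, chr9:47163394-47163545, had 8.03-fold enrichment with 26 tags over 2.36, ranked 2 of 1081, and had its nearest replicate 1 summit 22745 bp away. No read-level data were used to see whether the other library held tags there.

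Chromosome 9 had the largest share of sites with a near neighbour. The median distance to the next summit was 18.7 kb in replicate 1, against 19.7 to 22.3 kb on the others, and 33.1 kb in replicate 2, against 32.6 to 39.0 kb, so in replicate 2 it lay inside their range. In replicate 1, 760 of 2311 peaks had the next summit within 10 kb, which is 32.9% against 29.1% to 31.8% on the others and 30.8% over all 12. In replicate 2, 341 of 1414 did, which is 24.1% against 20.0% to 22.0% on the others and 21.2% over all 12. At 1 kb the counts were 93 (4.02%, against 2.61% to 3.46% and 3.03% over all 12) and 36 (2.55%, against 1.44% to 2.29% and 1.99% over all 12). In both lists chromosome 9 ranked first at 10 kb and at 1 kb. Since density chose the chromosome and denser peaks lie closer together, the margin was not separated from density.

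Runs of 3 or more summits, each within 10 kb of the next, held 646 peaks in 176 runs in replicate 1 and 248 peaks in 70 runs in replicate 2. That was 28% of the chromosome 9 peaks of replicate 1, against 19.6% to 24.9% on the others and 22.8% over all 12, and 17.5% of replicate 2, against 9.05% to 13.6% and 12%. Most runs were short, as 108 of the 176 and 45 of the 70 had 3 peaks. The longest had 10 peaks in replicate 1 and 8 in replicate 2, and other chromosomes reached 11 and 12.

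The longest run, chr9:51734739-51779985, held 10 replicate 1 peaks over 45.2 kb, in bin 52, which had the most peaks over both lists. Of these, 8 were shared, and enrichment in replicate 1 ran from 1.79-fold to 11.4-fold with a median of 7.56-fold. Its strongest member, chr9:51777160-51777422, had 11.4-fold enrichment in replicate 1 and 10.6-fold in replicate 2. Its weakest, chr9:51761093-51761311, had 1.79-fold and 3.26-fold over a background of 22.0 tags in replicate 1, and lay 536 bp from the next summit. The run was thus a row of called peaks of mixed strength and not a single strong peak with weak flanks. Whether its weakest peak is a site apart from its close neighbour was not tested.

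The second run, chr9:65865450-65887349, was shorter and stronger. It held 8 replicate 1 peaks over 21.9 kb, of which 7 were shared, with summits 2017 to 4563 bp apart and a median enrichment of 11-fold. Its inner 4 peaks were the strongest of the run in replicate 1. They stood at 12.2-fold, 12.4-fold, 13.6-fold and 15.3-fold in replicate 1 and 10.2-fold, 13.2-fold, 15.1-fold and 19.4-fold in replicate 2, in order along the chromosome, and its last peak at 9.69-fold and 12.1-fold. Its outer peaks at the start had 3.3-fold and 3.78-fold in replicate 1 and 5.34-fold and 4.31-fold in replicate 2. The unshared member, chr9:65885156-65885310, had 3.81-fold enrichment.

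The third run, chr9:28629861-28651516, held 7 replicate 1 peaks, of which 4 were shared. It was 1 of 5 runs of 7 peaks and is named because its weakest peak was the strongest of the weakest peaks of those 5. A single peak led it, chr9:28638486-28638748, with 14.1-fold enrichment in replicate 1 and 12.3-fold in replicate 2. The last 3 peaks of the run, at 3.85-fold, 3.73-fold and 4.57-fold in replicate 1, had no replicate 2 peak. They had pileups of 29.4 to 36.3 tags over about 7.16.

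Sites called in both lists gave the closest view of tight spacing. On chromosome 9, 30 neighbouring pairs of such sites lay within 1 kb, which is 2.3% of its shared sites, against 9 to 20 pairs and 0.947% to 1.94% on the others and 1.46% over all 12. Their summits were 389 to 981 bp apart in replicate 1, with a median of 805 bp, against medians of 540 to 776 bp for such pairs on the other chromosomes. Of the 30 pairs, 16 were 800 bp or more apart and 0 were under 200 bp. Neither list had neighbouring summits under 200 bp apart on any of the 12 chromosomes. The narrowest chromosome 9 peaks were 152 bp wide in replicate 1 and 134 bp wide in replicate 2. Sites closer together than a peak width can fall in the same called peak, so nothing about the sites is read from this absence. The enrichments of the members of a pair were not alike in replicate 1, with a median difference of 0.83 on the log2 scale. Over all replicate 1 peaks of chromosome 9, log2 enrichment had an SD of 0.75. The difference was not taken for peaks that are not neighbours, so it is not read as a trait of close pairs.

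The closest pair, chr9:49691060-49691696, had summits 389 bp apart in replicate 1 and 378 bp in replicate 2. Its first site had 18.6-fold enrichment in replicate 1 and 15-fold in replicate 2, and its second site 7.09-fold and 5.64-fold. The next pair, chr9:54039008-54039677, lay in the dense stretch with summits 398 and 391 bp apart, and its sites had 14.7-fold and 13.4-fold, then 6.97-fold and 5.64-fold. The third, chr9:58663338-58664078, had summits 416 and 464 bp apart, and its sites had 8.08-fold and 13.2-fold, then 5.82-fold and 6.25-fold. In these 3 pairs the site nearer the chromosome start was the stronger in both lists, as it was in 5 of the 10 closest pairs, and in 1 of the 10 the other site was the stronger in both. This order was not counted in the remaining pairs of chromosome 9 or on the other chromosomes, so no preferred order is read from it.

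Some classes of distance held more chromosome 9 peaks than any other chromosome. Of the 20 classes of 100 bp up to 2 kb, 4 did in replicate 1 and 5 in replicate 2, and 3 of these were the same in both lists, at 800 to 899 bp, 1700 to 1799 bp and 1900 to 1999 bp. In replicate 1, 23 chromosome 9 summits had the next summit 800 to 899 bp away, against 4 to 14 on each other chromosome and 9.62 if the others are scaled to the chromosome 9 peak number. In replicate 2, 7 did, against 1 to 6 and 3.43 after scaling, and the neighbouring classes of 700 to 799 bp and 900 to 999 bp, with 9 and 7, also ranked first of 12. In replicate 1 those neighbouring classes held 15 and 9, inside the range of the others. The class of 1700 to 1799 bp held 14 and 8 peaks, against at most 13 and 7, and 8.99 and 4.61 after scaling. That of 1900 to 1999 bp held 12 and 8, against at most 11 and 7, and 9.10 and 3.43 after scaling. In replicate 1 the class of 500 to 599 bp was also above the range, with 16 against 4 to 11. These counts are small, the classes were picked after the gaps were seen, and chromosome 9 has more peaks than most others. Most replicate 2 peaks overlap a replicate 1 peak, so the same gaps recur and the classes are not independent between the lists. Peaks with a neighbour within 1 kb did not have a higher median enrichment than the rest of chromosome 9. It was 4.54-fold against 4.91-fold in replicate 1 and 6.23-fold against 6.65-fold in replicate 2. Their upper quartile was 7.51-fold against 7.57-fold in replicate 1, and in replicate 2 it was higher, at 10.4-fold against 9.17-fold.

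**Figure D5:**
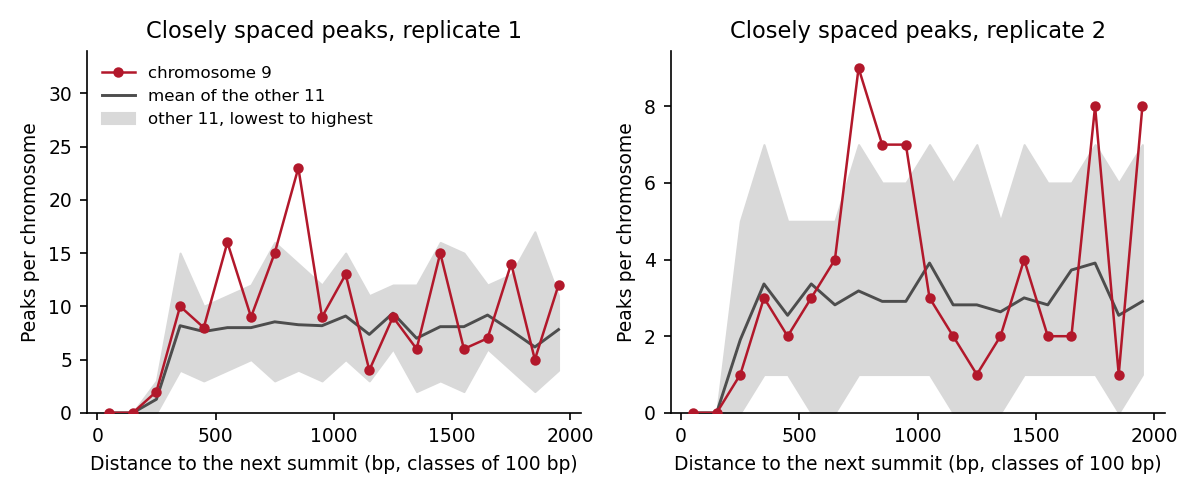
Points give the number of chromosome 9 peaks whose next summit lies in each class of 100 bp up to 2 kb, with replicate 1 on the left and replicate 2 on the right, the grey line the mean of the other 11 chromosomes and the band their lowest to highest count. The class of 800 to 899 bp holds 23 peaks in replicate 1 and 7 in replicate 2. On chromosome 9, as on every other chromosome, no called summits lie within 200 bp of each other, and closer sites can fall in the same called peak.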

How the data were processed

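AmpDAP-seq reads were single 75 bp reads of DNA amplified with 20 PCR cycles. The authors called peaks in each library at a q-value threshold of 0.05. The submitters' processing notes name Trimmomatic 0.38, Bowtie2 2.3.5, SAMtools 1.9 and MACS2 2.2.7.1. How duplicates were treated, and which control was used, is not given in the sources used here. Each deposited fold enrichment is a ratio, the summit pileup plus 1 over the local background plus 1. Each deposited peak also carries a −log10 p-value and a −log10 q-value. The deposited score column repeats the −log10 q times 10 without decimals (24174 of 24176 and 14931 of 14932 peaks).

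Coordinates count from 1 on the M82 assembly, and peaks were placed by summit. Peaks off the 12 numbered chromosomes (12 and 326) were left out. A chromosome was taken to extend to its last peak end over both lists. Pileup and background were solved from MACS2's formulas (pseudocount 1) for 2310 of 2311 chromosome 9 peaks of replicate 1, with tags scaled by 0.981, and for 1414 of 1414 of replicate 2. The lists give no read totals. Python 3.11.15, numpy 2.4.6, scipy 1.17.1, pandas 2.3.3 and matplotlib 3.10.9 were used, and the steps were tested on simulated data.

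Named were the 10 strongest pairs, the strongest unshared peak of each list, 3 bins with most and 3 with fewest peaks, 3 longest runs (ties by the larger smallest enrichment) and 3 closest pairs. Chromosome, members and rules were chosen with earlier results of these data known. Alternatives were stricter q-values, 4-fold enrichment, overlapping peaks, lists of equal length, other overlap rules, distances and parts, and each replicate alone.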

Additional observations from a re-analysis of the deposited data

How the results depend on the processing

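Chromosome 9 ranked first in density in every list used by the 10 alternatives, of which 2 use a single replicate. The mean density ratio became 1.16 at 4-fold enrichment or more and 1.15 with lists of equal length. It became 1.07 without stretches over 250 kb free of peaks and 1.09 without 50 to 55 Mb, these 2 chosen after the data were seen. It moved by less than the spread between replicates under the other 6. Of those 6, the 2 that use a single replicate lie inside that spread by construction. Part 16 held 24.0% of the excess on average and 26.4% with overlapping peaks alone. Its counterparts held 38.2% with 10 parts, where the part covers parts 15 and 16 of the 20, and 26.4% with parts by distance from the nearest end. The mean of the median fold enrichments was 5.76, and 7.15 without the pseudocount. With lists of equal length 79.8% of replicate 1 and 80.8% of replicate 2 peaks were shared. Equal length makes these shares nearly equal by arithmetic, since the number of shared peaks is nearly the same in both lists. At a q-value of 1e-05 the shares were 57.7% in replicate 1 and 94.9% in replicate 2. Why the shares of the lists differ was not tested. The next peak lay within 5 kb for 16.5%, within 10 kb for 28.5% and within 20 kb for 44.7%, the causes of these shifts being the distances themselves, and chromosome 9 ranked first in every list used by these 8 alternatives, of which 2 use a single replicate. The shift with 10 parts comes with the longer part. Those without the pseudocount, without 50 to 55 Mb and without peak-free stretches come with what was left out. The cause of the remaining shifts was not tested. Precision is limited by 2 libraries and by the pileups of replicate 2, whose median was 24 tags. Sites of low enrichment seen in replicate 1 alone could not be told apart from sites below the reach of replicate 2.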
